A study of Mus musculus with 8 samples.

Results

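Pkhd1l1, Spock2, Dpp4 and 4833403I15Rik were chosen by their measured levels, 4 of the 13687 genes measured, because their transcripts were more than 10-fold lower in mesothelial cells (MCs) lacking caveolin-1 than in wild-type (WT) MCs. All 8 cultures were used for each gene. Because the genotype difference chose these genes, their levels in either genotype are given as a description with no test, and tests are given only for stretching, which was no part of the stated rule. Of all genes tested, 47 were more than 10-fold lower in both conditions, and how these 4 were taken from among such genes was not given. Cells were released by digestion from the parietal peritoneum of 2 WT mice and 2 Cav-1- littermates (strain B6.Cg-CAV1tm1mls/J, called CAV1-/- here), grown as primary cultures and sequenced by RNAseq. Each mouse gave 1 culture kept static and 1 culture stretched for 24 h once confluent, which makes 4 groups of 2 cultures, fewer per group than the study's description of this experiment states. The CAV1-/- mice carried the targeted allele in every cell from birth, and the static cultures of both genotypes served as unstretched controls. The age of the mice and the settings of the stretching device for these cultures were not given in the sources used here. The Y-linked Ddx3y was at 75.4 to 106 TMM-normalized CPM in all 8 cultures. TMM-normalized CPM are reads per gene scaled to a common library total that was adjusted by the trimmed mean of M values, and they are called CPM below.

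Mesothelial cells form the flat epithelium that lines the peritoneal cavity, and caveolin-1 is the main coat protein of caveolae, the small plasma membrane pits that flatten when a cell is stretched. The 4 genes belong to separate families that act at or outside the cell surface. Dpp4 encodes dipeptidyl peptidase 4 (CD26), a membrane-anchored serine peptidase that trims dipeptides from the amino end of chemokines and incretin hormones. 4833403I15Rik, named Lvrn in the GENCODE annotation used here, encodes laeverin, a membrane-bound zinc aminopeptidase of the M1 family best known from trophoblast cells. Spock2 encodes testican-2, a secreted proteoglycan of the SPARC family that takes part in regulating membrane-type matrix metalloproteinases. Pkhd1l1 encodes fibrocystin-L, a very large single-pass membrane protein related to the product of the polycystic kidney disease gene Pkhd1 and found on the coat of hair cell stereocilia.

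The genes lie on separate chromosomes of GRCm38 (GENCODE M21 annotation). Pkhd1l1 (ENSMUSG00000038725) spans chromosome 15 from 44457494 to 44601369 on the plus strand, and its longest transcript has 78 exons. Spock2 (ENSMUSG00000058297) spans chromosome 10 from 60106219 to 60135198 on the plus strand, with 11 exons in its longest transcript. Dpp4 (ENSMUSG00000035000) spans chromosome 2 from 62330073 to 62412231 on the minus strand, with 26 exons. All 4 genes are annotated as protein coding, and Cav1 itself lies on chromosome 6. An antisense gene, Gm13561, overlaps Dpp4, and whether the counting used strand was not given, so reads from this pair could not be told apart.

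The start regions of Dpp4 and Spock2 are shown as examples of where these transcripts begin. Each run holds 250 bases before the start and 50 bases after it, read 5′ to 3′ on the gene's own strand from RefSeq (GRCm38.p6), at chr2:62412182-62412481 for Dpp4 and chr10:60106007-60106306 for Spock2. Capitals mark the letters that matched a searched motif.
Dpp4: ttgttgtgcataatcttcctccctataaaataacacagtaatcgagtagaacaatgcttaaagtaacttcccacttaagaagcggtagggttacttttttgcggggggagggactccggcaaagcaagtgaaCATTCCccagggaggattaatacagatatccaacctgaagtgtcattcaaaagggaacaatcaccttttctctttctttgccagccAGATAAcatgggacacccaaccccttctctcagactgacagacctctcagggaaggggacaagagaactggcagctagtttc
Spock2: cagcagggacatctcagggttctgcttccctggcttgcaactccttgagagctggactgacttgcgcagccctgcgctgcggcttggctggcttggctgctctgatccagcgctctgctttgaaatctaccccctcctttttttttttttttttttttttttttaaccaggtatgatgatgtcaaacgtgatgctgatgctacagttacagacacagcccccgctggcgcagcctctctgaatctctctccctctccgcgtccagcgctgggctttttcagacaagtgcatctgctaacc

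The motifs searched on both strands of these regions were GGAATG for TEAD, the partner of YAP, TGANTCA for AP-1, AGATAA for GATA factors, GTCTAGAC for SMAD, GTTAAT for HNF1, CACCTG for the E-box and TTCNNNGAA for STAT. The Dpp4 region held 1 TEAD match, read on the opposite strand as CATTCC at bases -118 to -113 from the start, and 1 GATA match at bases -32 to -27. Of 32851 start regions of the same length, 14.7% held the TEAD letters and 11.2% the GATA letters. The Spock2 region held none of the letters searched, which are found in 7.81% of start regions for AP-1, 0.213% for SMAD, 7.10% for HNF1, 20.2% for the E-box and 8.30% for STAT. The bases were 45.3% G or C in the Dpp4 region and 52.3% in the Spock2 region. A match is a run of letters and not a site shown to be bound. Pkhd1l1 and 4833403I15Rik are named only.

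Recovered reads totalled between 9777738 and 21203938 per library, and each stretched library held more reads than any static one. A count of 3 reads, taken as the smallest detectable amount, corresponded to 0.146 to 0.308 CPM, and intervals and floors cover counting error only. The targeted gene Cav1 was at 247 to 764 CPM in WT and at 12.8 to 34.5 CPM in CAV1-/- cultures, which left 5.15% of the WT mean in static culture and 4.02% on stretch. Cell type markers differed between animals. The 11 leukocyte markers measured, Lyz2 and Itgam among them, summed to 4791 and 4806 CPM in the cultures of the first CAV1-/- animal, to 303 and 339 in those of the second, to 440 and 461 in those of the first WT animal and to 74.0 and 79.5 in those of the second. The cultures of the first CAV1-/- animal therefore stood apart, and values without them are given below. The 13 mesothelial markers measured summed to 2983 to 3810 CPM in WT and to 916 to 1146 CPM in CAV1-/- cultures. In bulk RNA, fewer cells of a type and less RNA per cell cannot be told apart.

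Pkhd1l1 was at 304 and 141 CPM in the static WT cultures and at 88.3 and 134 CPM in the stretched ones. In CAV1-/- cultures it was at 8.49 and 7.92 CPM without stretch and at 2.57 and 3.78 CPM with it. The lowest WT culture was 16.6 times the highest CAV1-/- culture in static condition and 23.4 times on stretch. The group means left 3.68% of the WT level in static CAV1-/- MCs and 2.86% in stretched ones, each on 53 to 103 reads per culture.

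Dpp4 was at 154 and 111 CPM in static WT, 47.8 and 86.2 CPM in stretched WT, 7.09 and 6.78 CPM in static CAV1-/- and 0.825 and 2.19 CPM in stretched CAV1-/- cultures. The static CAV1-/- cultures were close to each other, whereas the stretched ones differed and rested on 17 and 40 reads. CAV1-/- means were 5.24% of WT in static culture and 2.25% on stretch. The stretched ratio of WT over CAV1-/- means was 44.5, and it ran from 21.9 for the closest pair of cultures to 104 for the farthest.

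Spock2 was at 80.0 and 66.4 CPM in static WT and at 22.9 and 43.4 CPM in stretched WT cultures. It was at 2.97 and 2.88 CPM in static CAV1-/- and at 1.65 and 2.90 CPM in stretched CAV1-/- cultures, on 28 to 53 reads. The CAV1-/- means were 3.99% and 6.87% of WT without and with stretch. Among the 4 genes, Spock2 had the smallest gap between single cultures, since the lowest stretched WT culture was 7.89 times the highest stretched CAV1-/- culture.

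4833403I15Rik (ENSMUSG00000024481), on the plus strand of chromosome 18 with 20 exons in its longest transcript, had the lowest levels. It was at 39.2 and 29.1 CPM in static WT, 13.7 and 15.7 CPM in stretched WT, 1.07 and 2.36 CPM in static CAV1-/- and 1.02 and 0.766 CPM in stretched CAV1-/- cultures. The CAV1-/- values rested on 13 to 23 reads, all above the 3-read floor. The CAV1-/- means were 5.03% of WT in static culture and 6.07% on stretch.

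**Figure D1:**
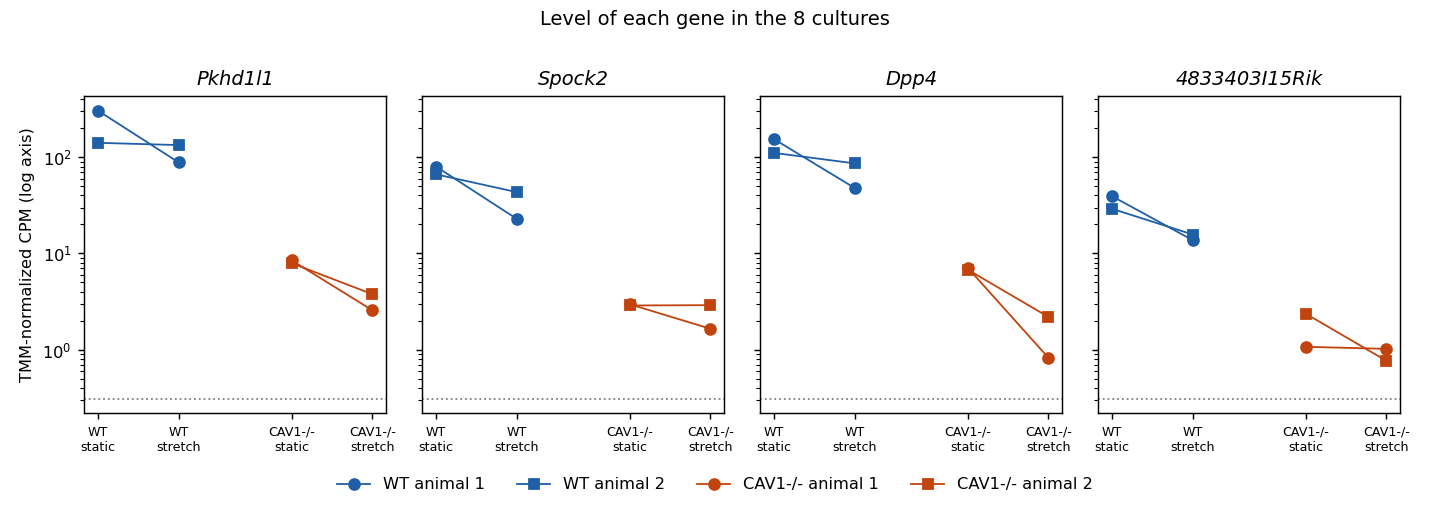
TMM-normalized CPM (log axis) of each gene in the 8 cultures, with circles and squares for the first and second animal of each genotype, lines joining the static and stretched culture of 1 animal, and a dotted line at 0.308 CPM, the highest 3-read floor. Every WT culture sits above every CAV1-/- culture for each gene, and the CAV1-/- values of Dpp4 run from 7.09 down to 0.825 CPM.

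On the log2(CPM + 1) scale, the static CAV1-/- minus WT difference was -4.50 for Pkhd1l1, -4.23 for Spock2, -4.05 for Dpp4 and -3.72 for 4833403I15Rik, with SEs of 0.39, 0.34, 0.38 and 0.29 and n = 2 cultures per group. On stretch the differences were -4.73, -3.34, -4.76 and -3.05 in the same order. Without the first CAV1-/- animal, whose leukocyte markers were high, the static differences were -4.55, -4.25, -4.08 and -3.37, and the stretched ones were -4.52, -3.06, -4.35 and -3.15. With the static culture of the second CAV1-/- animal left out instead, the static difference of 4833403I15Rik was -4.07. Over all 13665 genes tested, 47 (0.344%) were more than 10-fold lower in CAV1-/- cultures in both conditions. Ranked on the smaller of the static and stretched ratio, Pkhd1l1 was 9th, Dpp4 15th, 4833403I15Rik 21st and Spock2 28th. Just inside the 10-fold limit were Foxo6 (10.5), Rcan2 (10.2) and Fam180a (10.1), and just outside it were Npr1 (9.91), Muc16 (9.71) and Cyp2s1 (9.60).

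The order of levels between genes needs their lengths. Per kilobase of annotated exon sequence, static WT cultures held 20.9 ± 4.81 CPM of Dpp4, 13.2 ± 1.74 of Spock2, 12.0 ± 6.23 of Pkhd1l1 and 6.47 ± 1.36 of 4833403I15Rik (SD, n = 2). Spock2 and Pkhd1l1 did not differ beyond their spread, and Pkhd1l1, the highest gene per library, came below Dpp4 once its 18536 bases of exon were taken into account. In static CAV1-/- cultures the same quantity was 1.10 ± 0.0339 for Dpp4, 0.528 ± 0.0113 for Spock2, 0.442 ± 0.0219 for Pkhd1l1 and 0.326 ± 0.173 for 4833403I15Rik, so Dpp4 remained the highest per length there. In stretched CAV1-/- cultures the mean was 0.411 ± 0.160 for Spock2 and 0.238 ± 0.153 for Dpp4. Per kilobase of the longest transcript, static CAV1-/- cultures held 0.633 CPM of Pkhd1l1 and 0.558 of Spock2, the reverse order. For each gene the group means ran from static WT through stretched WT and static CAV1-/- to stretched CAV1-/-. Neighbouring groups in that order did not overlap, apart from static and stretched CAV1-/- cultures for Spock2. The gap between WT and CAV1-/- groups belongs to the genotype difference that chose the genes. Of all genes, 17.2% had both stretched WT cultures below both static ones, and 11.9% had this in CAV1-/- MCs. For 4833403I15Rik the closest static and stretched CAV1-/- cultures were at 1.07 and 1.02 CPM, on 13 and 21 reads.

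Stretching was compared within animals, since each mouse gave both cultures. Pkhd1l1, Dpp4 and 4833403I15Rik were lower on stretch in 4 of 4 animals and Spock2 in 3 of 4, where 16.9% of all genes tested were lower in 4 of 4. An exact sign-flip permutation test over the 4 animals (two-sided) gave p = 0.125 for the first 3 genes, the smallest value that 4 animals allow, and p = 0.25 for Spock2. In WT, both stretched cultures lay below both static ones for all 4 genes, as they did for 17.2% of all genes. In CAV1-/- MCs the same was true of Pkhd1l1, Dpp4 and 4833403I15Rik, against 11.9% of all genes. The stretched libraries were also the deeper ones, so depth and stretching cannot be told apart in this design.

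The size of the difference varied between animals. In the first WT animal the stretched level was 0.290 of the static level for Pkhd1l1 (95% interval 0.274 to 0.307, conditional exact binomial), 0.286 for Spock2, 0.311 for Dpp4 and 0.349 for 4833403I15Rik. In the second WT animal the ratios were nearer to 1, at 0.947 (0.889 to 1.01), 0.653, 0.778 and 0.540. The first WT animal had the higher static level and the lower stretched level of the pair for each gene. In the first CAV1-/- animal Dpp4 had the lowest ratio of all, 0.116 (0.0648 to 0.197), next to 0.303 for Pkhd1l1, 0.556 for Spock2 and 0.951 (0.454 to 2.07) for 4833403I15Rik. In the second CAV1-/- animal the ratios were 0.477, 1.01 (0.626 to 1.65), 0.323 and 0.324 for Pkhd1l1, Spock2, Dpp4 and 4833403I15Rik. At this depth no change of Spock2 was detectable in that animal.

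**Figure D2:**
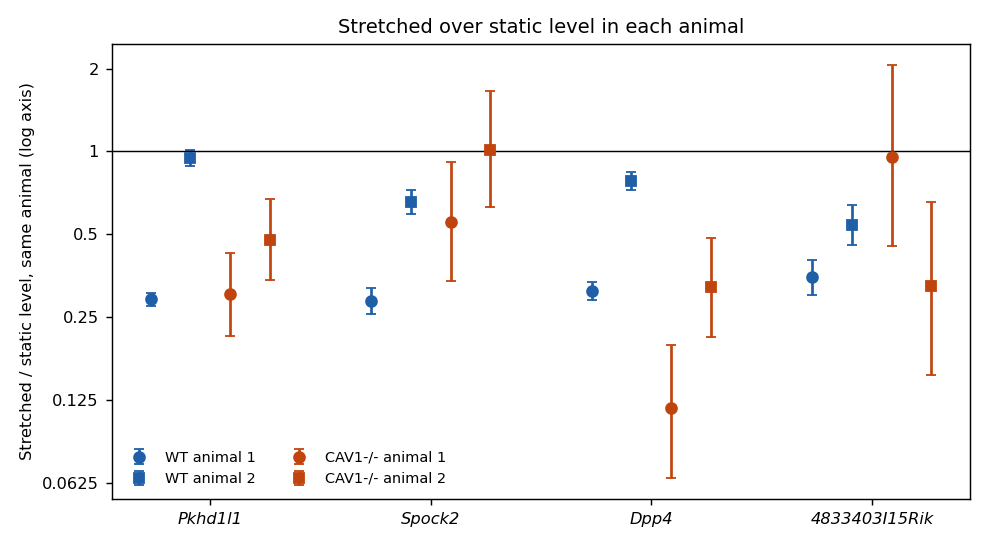
Stretched over static level (log axis) of each gene in each of the 4 animals, with 95% intervals from counting error alone and a line at 1. The ratios run from 0.116 for Dpp4 in the first CAV1-/- animal to 1.01 for Spock2 in the second, and intervals are wide in CAV1-/- cultures because few reads were counted.

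None of the 4 genes passed an adjusted p of 0.05 for stretch in the limma fit over all genes, in which 0% of the genes tested were called. In WT the log2 change on stretch was -0.93 (SE 0.39) for Pkhd1l1, -1.18 (0.34) for Spock2, -1.01 (0.38) for Dpp4 and -1.15 (0.29) for 4833403I15Rik, each with a limma adjusted p of 1. In CAV1-/- MCs it was -1.16, -0.29, -1.72 and -0.48 in the same order, again with adjusted p of 1. This fit did not pair the cultures of 1 animal. With the animal as a replicate block, the limma adjusted p in WT was 0.333, 0.219, 0.282 and 0.204 in the same order. In CAV1-/- MCs it was 0.288, 0.703, 0.160 and 0.476. At an unadjusted p under 0.05, limma without the block listed 310 genes in WT (2.27%) and 286 in CAV1-/- MCs (2.09%). Spock2, Dpp4 and 4833403I15Rik were among the former, and Pkhd1l1 and Dpp4 among the latter. edgeR's quasi-likelihood test called 0 genes in either genotype, and DESeq2 called 3 in WT (0.022%) and 7 in CAV1-/- MCs (0.0512%), of which 5 were lower (0.0366%). Dpp4 was one of those 5, with a DESeq2 log2 change of -2.22 and an adjusted p of 0.0322. Its stretched CAV1-/- values rested on 17 and 40 reads, and neither edgeR nor limma, with or without the block, called it.

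Averaged over both genotypes, the log2 change on stretch was -1.36 (SE 0.27) for Dpp4, -1.04 (0.28) for Pkhd1l1, -0.82 (0.21) for 4833403I15Rik and -0.73 (0.24) for Spock2, with a limma adjusted p of 0.984 for each. These estimates were low among all genes, of which 0.117% had a lower value than Dpp4, 0.41% than Pkhd1l1, 0.944% than 4833403I15Rik and 1.27% than Spock2. limma and edgeR's quasi-likelihood test called 0 genes in this average, limma listed 647 at an unadjusted p under 0.05 (4.73%), all 4 genes among them, and DESeq2 called 39 (0.285%), of which 27 were lower (0.198%). With DESeq2 the average change of Dpp4 was -1.60 with an adjusted p of 0.00393. With the animal as a replicate block, limma called 201 genes (1.47%), 117 of them lower (0.856%), but none of the 4: the adjusted p was 0.0531 for Dpp4, 0.0892 for 4833403I15Rik, 0.102 for Pkhd1l1 and 0.124 for Spock2. Without the first CAV1-/- animal the average changes were -1.15, -0.91, -1.04 and -0.59 for Dpp4, Pkhd1l1, 4833403I15Rik and Spock2.

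Whether stretch acted differently in WT and CAV1-/- MCs was tested by the interaction. The log2 difference of the stretch effects, CAV1-/- minus WT, was -0.23 (SE 0.56) for Pkhd1l1, 0.89 (0.48) for Spock2, -0.71 (0.53) for Dpp4 and 0.67 (0.41) for 4833403I15Rik, each with a limma adjusted p of 1. limma, edgeR and DESeq2 each called 0 genes for the interaction, and 66 genes (0.483%), none of them among the 4, had an unadjusted limma p under 0.05. The direction for Pkhd1l1 and Dpp4 turned to 0.21 and 0.08 with a pseudocount of 5, so no direction is read from them.

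The genes beside the 4 on their chromosomes were then compared between genotypes. The nearest measured genes on either side were Eny2, at 19.2 kb, and Ebag9, at 17.8 kb, for Pkhd1l1, Ascc1, at 6.23 kb, and Psap, at 142 kb, for Spock2, Psmd14, at 530 kb, and Fap, at 88.7 kb, for Dpp4, and Ap3s1, at 59.2 kb, and Commd10, at 51.6 kb, for 4833403I15Rik. Ascc1, the closest of them, was at 17.6 ± 6.06 CPM in static WT and 16.6 ± 2.27 CPM in static CAV1-/- cultures. Eny2 was at 50.1 ± 4.15 and 51.7 ± 9.79 CPM in the same groups. The static CAV1-/- minus WT log2 differences of these neighbours ran from -0.52 for Fap to 0.83 for Psap, the precursor of the lysosomal saposins, with limma adjusted p of 0.69 to 0.99. None of the neighbours was called in either condition, where limma called 0.0732% of all genes in static culture and 0.0585% on stretch.

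**Figure D3:**
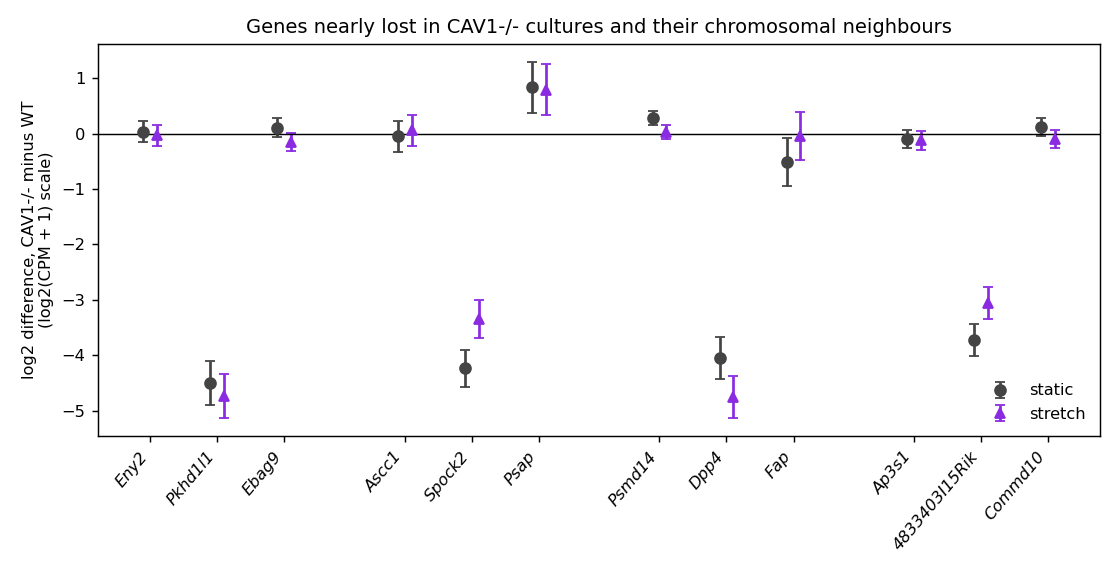
CAV1-/- minus WT difference on the log2(CPM + 1) scale, without stretch (circles) and with stretch (triangles), for the 4 genes and the nearest measured gene on either side of each, with SEs from limma. The 4 genes sit between -4.76 and -3.05, and the neighbours between -0.52 and 0.83.

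The families of the 4 genes were examined next, leaving out the genes themselves. Of the DPP4 family and related prolyl peptidases, 8 further genes were tested, and limma, edgeR and DESeq2 called 0 of them for genotype or stretch. Fap, the closest paralog of Dpp4 and a fibroblast surface peptidase, was at a low level, 1.82 ± 0.293 CPM in static WT and 0.998 ± 0.479 CPM in static CAV1-/- cultures. The cytosolic paralogs Dpp8 and Dpp9 were at 95.2 and 69.3 CPM in static WT and at 98.3 and 67.1 CPM in static CAV1-/- cultures, with log2 differences of 0.03 and -0.04. The median static difference of the list was -0.01, and that of all genes was -0.01. Prcp, a lysosomal carboxypeptidase, alone passed an unadjusted p of 0.05 for genotype, with a static log2 difference of 0.33 and a limma adjusted p of 0.564.

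Of the genes listed as binding partners or substrates of DPP4, 10 were tested. Ada, the adenosine deaminase gene on this list, was at 3.49 CPM in static WT and 5.36 CPM in static CAV1-/- cultures. Whether its product binds DPP4 in mouse cells was not examined here. Cxcl12, a chemokine that DPP4 inactivates, was at 108 and 141 CPM, and Fn1, the matrix protein fibronectin, was at 14903 and 17699 CPM in the same groups. Cav1 is itself on this list, and its static log2 difference of -4.11 had a limma adjusted p of 0.102. limma and edgeR called 0 of the 10 for genotype, and DESeq2 called 1, Cav1, in static culture as on stretch, where it called 2.26% and 1.74% of all genes. Cav1 alone among the 10 passed an unadjusted p of 0.05 in each condition. Its lower level follows from the targeted allele, so neither this nor the DESeq2 call is a result about the other genes listed. Of all genes, 8.17% passed this unadjusted limit in static culture and 6.26% on stretch. For stretch, limma, edgeR and DESeq2 called 0.

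Of the SPARC and testican family, 5 further genes were tested and 0 were called for genotype or stretch by limma, edgeR or DESeq2. As limma called 0.0732% and 0.0585% of all genes for genotype and 0% for stretch, a list of this size would rarely hold a called gene, which applies to each family list here. The paralogs Spock1 and Spock3 were not analysed here. Sparc, an abundant collagen-binding matrix protein, was at 7034 CPM in static WT and 5892 CPM in static CAV1-/- cultures, a log2 difference of -0.27. Smoc2, another secreted member, had -1.44 with a limma adjusted p of 0.62. Of the membrane-type metalloproteinases and their partners, 6 were tested and none was called by limma, edgeR or DESeq2, or at an unadjusted p under 0.05. Mmp14, the main membrane-type metalloproteinase, was at 1217 and 934 CPM, and its inhibitor and cofactor Timp2 at 1347 and 715 CPM in static WT and CAV1-/- cultures.

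Of the fibrocystin and G8 domain family, 4 further genes were tested, and none was called for genotype by limma, edgeR or DESeq2. Tmem2, a cell surface hyaluronidase with a G8 domain like that of Pkhd1l1, was at 97.9 CPM in static WT and 101 CPM in static CAV1-/- cultures. Cemip, a hyaluronan-binding protein with the same domain, was at 252 and 149 CPM in those groups and at 80.8 and 36.9 CPM on stretch. Its average change on stretch was -2.00 on the log2 scale, which limma did not call (adjusted p = 0.984) and DESeq2 did. The polycystins Pkd1 and Pkd2 had static genotype differences of -0.24 and 0.06. Of the M1 aminopeptidases related to 4833403I15Rik, 8 were tested, a list added after values had been seen, and none was called or passed an unadjusted p of 0.05. The surface enzyme Anpep (CD13) was at 22.1 CPM in static WT and 57.5 CPM in static CAV1-/- cultures, and the cytosolic Npepps at 148 and 183 CPM.

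The genes whose pattern over the 8 cultures came closest to the 4 were found by the root mean square (RMS) difference of log2(CPM + 1) profiles, each centred on its own mean. For Dpp4 this was Aldh1a1, the retinaldehyde dehydrogenase of retinoic acid synthesis, at an RMS of 0.262, followed by Lrrn4 (0.564) and Gpm6a (0.588). Aldh1a1 was at 61.3 to 227 CPM in WT and at 2.91 to 15.6 CPM in CAV1-/- cultures. For Pkhd1l1 the closest were Aldh1a1 (0.451), the membrane glycoprotein gene Gpm6a (0.505) and Smpd3, a neutral sphingomyelinase (0.524). For Spock2 they were Myo5b, a motor of recycling endosomes (0.370), the calcineurin regulator Rcan2 (0.440) and Lsr, a protein of tricellular junctions (0.445). For 4833403I15Rik they were Myo5b (0.249), Lrrn4 (0.389) and the tight junction gene Cldn15 (0.394). To the mean profile of the 4, the nearest were Aldh1a1 (0.346), Lrrn4 (0.368), Lsr (0.431), Myo5b (0.450) and Krt7, a keratin of simple epithelia (0.515). Among the 4 themselves, Pkhd1l1 and Dpp4 were the closest pair (0.300), followed by Spock2 and 4833403I15Rik (0.383), and the other pairs were at 0.570 to 0.759. These distances are a description over 8 libraries that share the genotype difference used to choose the genes.

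The mesothelial markers moved in the same direction as the 4 genes. On the log2(CPM + 1) scale, all 13 measured had a lower mean in CAV1-/- than in WT cultures in both conditions. The median log2 difference was -2.07 in static culture and -2.23 on stretch, where the medians of all genes were -0.01 and 0. In plain CPM, the stretched mean of Krt19 was higher in CAV1-/- cultures (36.9) than in WT cultures (29.5). limma called 2 of the 13 in each condition, against 0.0659% of all genes called lower in static culture and 0.0512% on stretch. DESeq2 called 8 in each, against 1.51% and 1.31%. edgeR called 1 in static culture and 2 on stretch, where it called 2 and 6 of the 13665 genes tested. Krt8, a keratin of simple epithelia, was at 242 CPM in static WT and 37.4 CPM in static CAV1-/- cultures, with a log2 difference of -2.66 and a limma adjusted p of 0.0134. Lrrn4, a membrane protein of mesothelium, was at 416 and 35.7 CPM, with -3.57 and 0.0361. Msln, which encodes mesothelin, was at 506 and 124 CPM, with a static limma adjusted p of 0.69. Wt1, a transcription factor of mesothelium, was at 121 and 112 CPM, and the podoplanin gene Pdpn at 531 and 394 CPM. No mesothelial marker measured was at 0 in any culture. The part of these markers in the levels of the 4 genes was not tested.

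**Figure D4:**
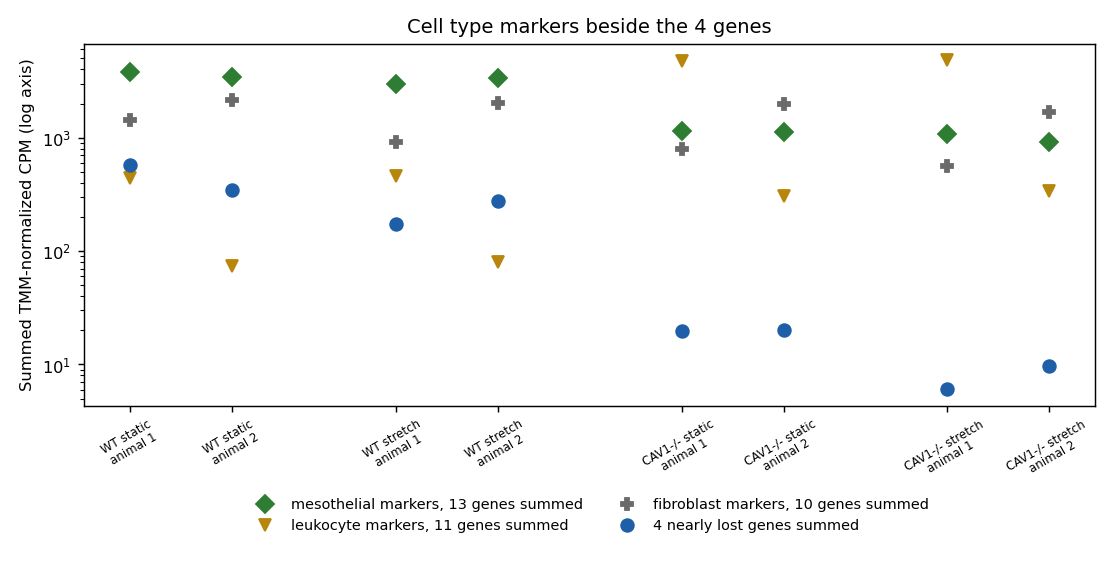
Summed TMM-normalized CPM (log axis) of 13 mesothelial, 11 leukocyte and 10 fibroblast markers and of the 4 genes in each culture. The 4 genes sum to between 173 and 577 CPM in WT and to between 6.06 and 19.9 CPM in CAV1-/- cultures, mesothelial markers to at least 2983 CPM in WT and at most 1146 CPM in CAV1-/- cultures, and leukocyte markers are highest in the first CAV1-/- animal.

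All 11 leukocyte markers had higher group means in CAV1-/- cultures in both conditions. Their sums differed widely between the 2 CAV1-/- animals, at 4791 and 4806 CPM in the first and 303 and 339 CPM in the second. Of the 11, limma called 0. Only Cd52 passed an unadjusted p of 0.05 in static culture, and DESeq2 called it there, with 0 on stretch by either measure. A share of 1 in 11 is near the 8.17% of all genes that passed this unadjusted limit in static culture. None of the 11 was at 0 in any culture. The 10 fibroblast markers summed to 801 and 1970 CPM in static CAV1-/- cultures and to 1439 and 2164 CPM in static WT cultures, with 0 called by limma, edgeR or DESeq2 and 0 at an unadjusted p under 0.05. Endothelial markers summed to 25.1 to 73.3 CPM over the 8 cultures, mural markers to 125 to 719, lymphocyte markers to 2.34 to 10.2, adipocyte markers to 3.17 to 28.6 and skeletal muscle markers to 7.40 to 1233, the last through Acta1. Of these lists, limma, edgeR and DESeq2 called 0 genes for genotype or stretch, and 1 adipocyte marker passed an unadjusted p of 0.05 for genotype in static culture and for stretch in WT. The endothelial marker Emcn was listed at 0 in 2 cultures and the adipocyte marker Plin1 in 4. Leukocyte markers were at 303 and 339 CPM in the second CAV1-/- animal and at 440 and 461 in the first WT animal. The 4 genes summed to 19.9 CPM without stretch and 9.63 CPM with it in that CAV1-/- animal. In that WT animal they summed to 577 and 173 CPM. This is 1 pair of animals, and the part of leukocyte content in the levels of the 4 genes was not tested. On stretch, 9 of the 13 mesothelial markers had a lower average value, with a median log2 change of -0.45 and 0 called by limma or edgeR, 2 at an unadjusted p under 0.05 and 1, Lrrn4, called by DESeq2, next to -0.73 to -1.36 for the 4 genes.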

How the data were processed

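RNAseq was performed on polyA RNA from 8 MC cultures, sequenced as single reads. According to the labels and the methods, the authors removed adapters with cutadapt and estimated the reads of each gene with RSEM on transcripts of GRCm38. The authors deposited TMM-normalized CPM, a signal that is never negative, for 13687 genes. Values came in steps of 1 read, so reads were recovered (100% of values whole within 0.01 read). Rows without a gene name (88) held at most 0.524% of the reads of a library.

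The deposited scaling was kept, except in the rescaling alternative and in DESeq2, which estimated its own library scaling from the recovered reads. Genes with a CPM of at least 1 in at least 2 libraries (13665, all 4 genes included) were fitted on log2(CPM + 1) with limma (version 3.58.1, R version 4.3.3), 1 mean per group, an intensity trend, 4 residual degrees of freedom and Benjamini-Hochberg adjustment at 0.05. Alternatives were pseudocounts, filters, rescaling, a replicate block, edgeR (version 4.0.16) and DESeq2 (version 1.42.0) on recovered reads, and libraries left out. Static and stretched cultures of 1 animal deviated together (r = 0.70 in WT and 0.85 in CAV1-/- MCs), as the shared animal in the labels implies. Same-numbered WT and CAV1-/- cultures came from different animals per the labels, which name no shared litter, batch or day for them. The p-values without a block set a difference against the spread between the 2 cultures of a group, which includes differences between animals. For stretch, those with the block set aside each animal's own level. All of them rest on 2 animals per genotype.

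Genes and lists were chosen with earlier results of these data known. The edgeR fit with a block and the M1 aminopeptidase list were added after values had been seen. Named genes were the 4, Cav1, the nearest profiles (3 per gene and 5 to their mean), 3 genes on either side of the 10-fold limit, chromosomal neighbours, close paralogs or called genes of the lists and cell type markers. Other genes of the pathway lists named in the text (Prcp, Ada, Cxcl12, Fn1, Smoc2, Mmp14, Timp2, Pkd1, Pkd2, Anpep and Npepps) and Ddx3y were chosen after their values were seen. limma, with and without the block, and edgeR were run on simulated counts, and DESeq2 was not. The simulated cultures shared no animal effect, unlike these cultures, so the simulation does not show how the tests behave in this design.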

Additional observations from a re-analysis of the deposited data

How the results depend on the processing

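All 4 genes kept a lower level in CAV1-/- than in WT cultures, and a lower average level on stretch, under every alternative run. The genotype direction chose these genes, so that it was kept is a description and gives no support. Counts of called genes moved. DESeq2 called 3 genes for stretch in WT, 7 for stretch in CAV1-/- MCs and 39 for the average stretch effect, and 309 and 238 for genotype in static and stretched culture, where limma called 10 and 8. With the replicate block, limma called 1 gene for stretch in CAV1-/- MCs, 201 for the average, and 246 and 110 for genotype without and with stretch, the last pair by a number that joins different animals. Across genes, same-numbered WT and CAV1-/- cultures also deviated together (r = 0.52 static and 0.48 stretched), and the first animal had the higher leukocyte marker sum in both genotypes, so a link that the labels do not name was not tested. With edgeR and the replicate block, chosen after seeing the data, the counts were 2 and 152, and without the block edgeR called 2 genes for genotype in static culture. Fits of only the 4 libraries of a genotype comparison called 0 in either condition, as did fits without both cultures of the first CAV1-/- animal, which have fewer samples. Leaving out 1 culture each gave 0 to 8 called genes in static culture and 0 to 7 on stretch. The count was 0 in static culture without either static WT culture, and 0 on stretch without the second stretched WT or either stretched CAV1-/- culture. The replicate block changed no call of the 4 genes.

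For Dpp4, DESeq2 alone called the stretch effect in CAV1-/- MCs (-2.22) and on average (-1.60). Directions that turned were the stretch effect of Spock2 in CAV1-/- MCs without the first CAV1-/- animal (0.0081), and the interaction of Pkhd1l1 and Dpp4 with a pseudocount of 5 (0.21 and 0.0828). The interaction of Pkhd1l1 was also 0.0255 without that animal, and -0.78 to 0.32 with 1 culture left out. None of these was past the threshold. Genotype differences followed the pseudocount, by construction. With a pseudocount of 5 they were -4.01 for Pkhd1l1, -3.30 for Spock2, -3.51 for Dpp4 and -2.54 for 4833403I15Rik in static culture and -3.80, -2.34, -3.42 and -1.74 on stretch. With 0.1 they were -4.32 for 4833403I15Rik in static culture and -3.79, -5.47 and -3.91 for Spock2, Dpp4 and 4833403I15Rik on stretch. edgeR gave -4.64 for Spock2 and -4.33 for 4833403I15Rik in static culture and -3.86, -5.48 and -4.03 for Spock2, Dpp4 and 4833403I15Rik on stretch, and DESeq2 gave -4.32 for 4833403I15Rik in static culture and -3.86, -5.48 and -4.03 on stretch. With 1 culture left out, the static difference ran from -5.05 to -3.95 for Pkhd1l1 and from -4.07 to -3.37 for 4833403I15Rik, which was also at -3.37 without the first CAV1-/- animal, and the stretched difference of Spock2 ran from -3.79 to -2.89. A group left with 1 culture was assumed to vary like the others. The cause of the other moves was not tested. CAV1-/- values rested on 13 to 103 reads, which limits the precision of every ratio there.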
